A study of Rattus norvegicus with 20 samples.

Results

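Transcripts of 9 genes for hepatic uptake transporters and bile salt transport were followed in the livers of male Harlan Sprague-Dawley rats given triphenyl phosphate, an organophosphate that serves as flame retardant and plasticiser. The members are Slc10a1, Slco1a1, Slco1a4, Slco1b2, Slco2a1, Slc22a7, Slc22a8, Abcb11 and Abcb4, chosen by gene name. All 9 were measured, with 13 of the 31042 probe sets analysed, among 14217 genes tested. A probe set is a group of array probes that together report 1 transcript, and a gene with several was represented by the one of highest mean level across the 20 arrays. Liver RNA was hybridised to 20 Affymetrix arrays: 5 arrays of the vehicle group (0 mg/kg) and 3 each of the groups at 55, 110, 220, 440 and 881 mg/kg. Every rat, those of the vehicle group included, received corn oil by oral gavage once a day for 4 days, with or without the compound, and the liver was taken on day 5. The age of the rats is not given in the sources used here. One dose is 440 mg/kg in the sample labels and 441 mg/kg in the design text. The protocol text speaks of 3 rats in each group, whereas the vehicle group holds 5 arrays, and no label ties an array to an animal of its own, so the p-values measure only how far these samples spread, part of which may be technical.

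A hepatocyte takes up bile salts, hormones, drugs and other organic anions from the blood across its sinusoidal membrane and passes bile salts and lipids into bile across its canalicular membrane. Slc10a1 (Ntcp) is the sodium-dependent bile salt carrier of the sinusoidal side, and the Slco genes encode organic anion transporting polypeptides (Oatps), which need no sodium. Slc22a7 (Oat2) and Slc22a8 (Oat3) are organic anion transporters. At the canaliculus, Abcb11 (Bsep) pumps bile salts into bile and Abcb4 (Mdr2) moves phosphatidylcholine to the outer side of the membrane, where bile salts carry it away.

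Transcripts of the organic anion transporters Slc22a7 and Slc22a8 and of the canalicular pumps Abcb4 and Abcb11 fell with dose. The call of Abcb11 at 881 mg/kg was lost under several other settings. Of the Slco genes, Slco1b2 fell at 440 mg/kg and narrowly with dose. Slco1a1, Slco1a4 and Slco2a1 did not pass the test at any dose as deposited, on the probe set representing each gene. Nor did the sodium-dependent bile salt carrier Slc10a1. Slc22a8 fell most, to a level 2.91-fold lower at 881 mg/kg than in vehicle. Abcb4 was the only member called below 440 mg/kg in the main fit, and was 1.36-fold lower at 110 mg/kg. Slc22a8 had a log2 change of -0.47 at 220 mg/kg, with all its arrays there below those of vehicle. That change did not pass limma's test (adjusted p = 0.102). No member rose at any dose on the values as deposited, in limma's test with Benjamini-Hochberg adjustment over all genes, where a call means an adjusted p below 0.05.

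At 881 mg/kg 4 of the 9 members fell (Slc22a8, Abcb4, Slc22a7 and Abcb11) and 0 rose, where 6.73% of all genes fell and 12.7% rose. Over all genes 1810 rose and 957 fell as deposited, and the split moved with the scaling: it was 2268 and 684 with each array centred on the median of its probe sets, and 1490 and 1345 with each centred on the median of the tested genes. Of the members, 3 fell and Slco2a1 rose under the first of these scalings, and 4 fell and 0 rose under the second. At 440 mg/kg 4 fell (Abcb4, Slc22a8, Slc22a7 and Slco1b2), against 4.28% of all genes. At 110 and at 220 mg/kg Abcb4 alone fell, where 1.24% and 1.18% of all genes fell. With arrays weighted by their quality Slc22a8 and Slc22a7 were called at 220 mg/kg too, and the share of all genes under that setting is not given. At 55 mg/kg 0 members were called, where 2.81% of all genes were called in either direction. A trend was fitted with the dose step (0 for vehicle to 5 for 881 mg/kg) as 1 numeric term. It called 5 members downward (Slc22a8, Abcb4, Slc22a7, Abcb11 and Slco1b2), against 8.81% of all genes.

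The median log2 change of the 9 members was 0.07, -0.09, -0.15, -0.17 and -0.20 at 55, 110, 220, 440 and 881 mg/kg. Over all genes it lay between -0.005 and 0.013 at these doses. At 110 and at 220 mg/kg all 9 members had a change below 0, where 51.4% and 49.5% of all genes did. At 440 and 881 mg/kg 8 of 9 did, Slco2a1 being the exception, where 50.3% and 49.8% of all genes did. Several of these changes were close to 0. At 110 mg/kg those of Slco2a1, Slco1b2 and Slco1a4 were -0.007, -0.019 and -0.027, and at 220 mg/kg those of Slco2a1 and Slc10a1 were -0.015 and -0.041. Each was smaller than its standard error and changed sign in a fit that left out 1 array. The 5 comparisons with vehicle share the vehicle arrays.

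The 3 arrays of a group lay wholly below the 5 vehicle arrays for 1 member at 110, 3 at 220, 4 at 440 and 4 at 881 mg/kg. Over all genes this held for 5.28%, 5.02%, 8.4% and 8.31%. All 3 arrays lay above vehicle for 1 member, Slco2a1 at 881 mg/kg, as for 13.4% of all genes. At 55 mg/kg the arrays of every member overlapped those of vehicle, where 13.6% of all genes had groups that did not overlap.

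**Figure D1:**
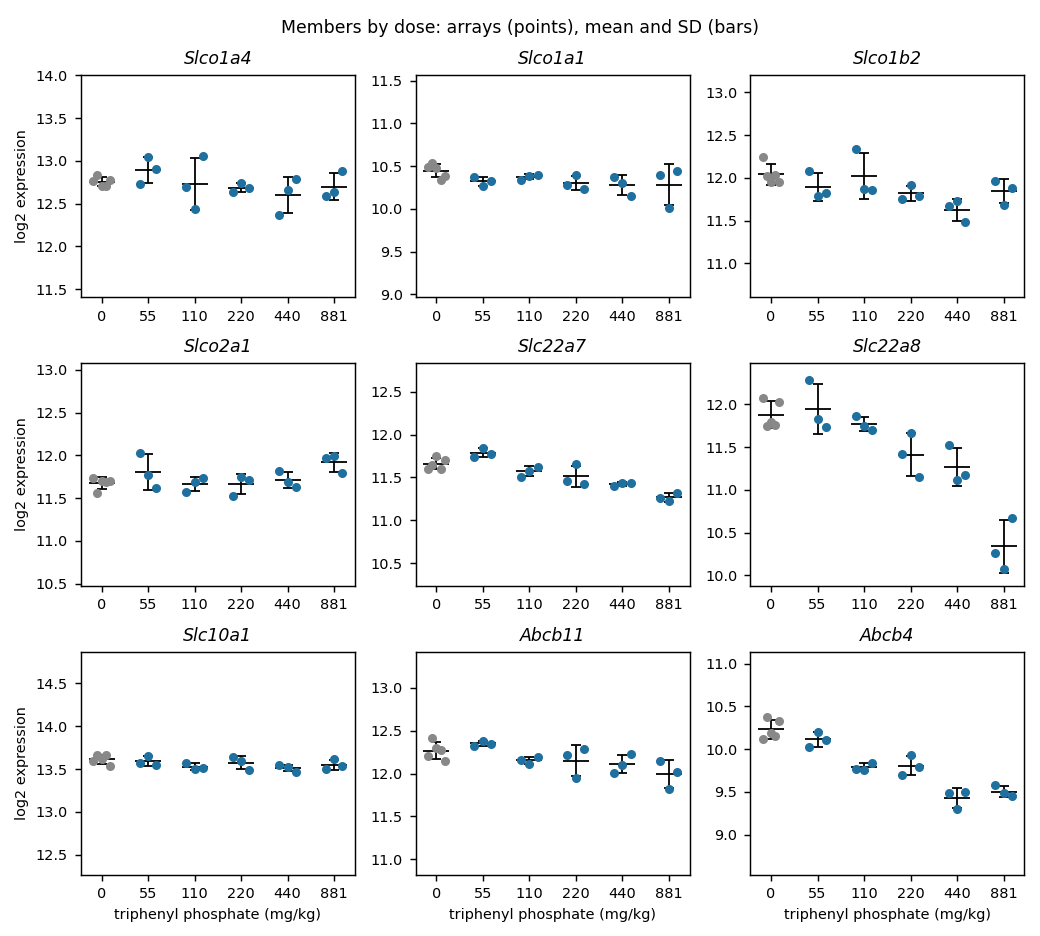
Log2 expression of the 9 members by dose of triphenyl phosphate (mg/kg, 0 being vehicle). Points are arrays, horizontal marks the group means and bars the SD (n = 5 for vehicle, 3 for each dose), and every panel spans the same number of log2 units. Slc22a8 at 881 mg/kg lies below all other groups, with arrays between 10.08 and 10.67. Abcb4 lies below all vehicle arrays from 110 mg/kg upward, and Slc10a1 stays between 13.47 and 13.67 on all arrays.

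Array 881 mg/kg replicate 2 stood apart from the other 19. Its median correlation with the other arrays was 0.980, against 0.990 to 0.994 for the rest, and the 3' end of the Gapdh control read 5.24 log2 units above the 5' end, against 0.81 to 1.64 elsewhere. The 3' excess of the beta-actin control was 3.47 there and 1.67 to 2.72 on the rest, and that of the hexokinase control 1.47 and 1.54 to 2.06. Without that array 3 members fell at 881 mg/kg (Slc22a8, Abcb4 and Slc22a7) and 4 in the trend. The share of all genes that fell in the fit without that array is not given here. The member lost from the trend, Slco1b2, was also lost without each of 13 other arrays, as given with its values. Between 440 and 881 mg/kg the call was the same with and without it. The precision is limited by the number of arrays: over all genes, the median standard error of a change from vehicle was 0.10 log2 units.

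Slc22a8, the organic anion transporter Oat3, lies on chromosome 1 from 214925506 to 214945516 (GRCr8). Its level was 12.08, 11.74, 11.79, 11.75 and 12.03 on the vehicle arrays. It was 12.28, 11.83 and 11.73 at 55 mg/kg and 11.86, 11.75 and 11.70 at 110 mg/kg. These first 3 groups overlapped. At 220 mg/kg it was 11.42, 11.66 and 11.16, at 440 mg/kg 11.53, 11.11 and 11.17, and at 881 mg/kg 10.27, 10.08 and 10.67. Every array from 220 mg/kg upward was below the lowest vehicle array, and the 3 arrays at 881 mg/kg were below all 17 others. The change at 881 mg/kg was -1.54 ± 0.15 (SE; 95% interval -1.85 to -1.23), with means of 10.34 ± 0.31 and 11.88 ± 0.16 in vehicle (SD, n = 3 and 5, adjusted p = 2.43e-06).

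At 440 mg/kg the change of Slc22a8 was -0.61 ± 0.15 (adjusted p = 0.0128), and the call was lost without 440 mg/kg replicate 2 (0.0802) or replicate 3 (0.0654). At 220 mg/kg it was -0.47 ± 0.15 and did not pass the test (adjusted p = 0.102), except with arrays weighted by their quality (0.0047). The step between the highest doses was called: the change of 881 against 440 mg/kg was -0.93 ± 0.17 (adjusted p = 0.0276), where 0.127% of all genes fell. That call was lost without either of 2 arrays at 440 mg/kg, replicate 1 (0.164) and replicate 3 (0.0663), without 881 mg/kg replicate 1 (0.0579), with the mean of both probe sets (0.109) and with the 2 groups alone in the fit (0.273). Slc22a8 at 881 mg/kg also differed from the 55, 110 and 220 mg/kg groups, with log2 changes of -1.61, -1.43 and -1.07, all called, where 3%, 1.52% and 0.57% of all genes fell.

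A second probe set of Slc22a8 gave the same direction. It read 7.14, 8.17 and 7.46 at 881 mg/kg, against 9.15, 8.62, 8.90, 8.97 and 9.06 in vehicle, a change of -1.35 ± 0.25 (adjusted p = 0.0018 with every probe set tested). The groups did not overlap. Array 881 mg/kg replicate 2 was the highest of its group on this probe set and the lowest on the first, so leaving it out gave -1.64 and -1.41. At 440 mg/kg the second probe set changed by -0.74 ± 0.25 and did not pass (adjusted p = 0.0985). Its change of 881 against 440 mg/kg was -0.61 ± 0.28 and did not pass either (adjusted p = 0.554), unlike that of the first.

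Of all other genes, the 5 with the highest Pearson correlation with Slc22a8 over the 20 arrays were Apoc3, Sult1c3, Nrep, Hao2 and Pc. The arrays share the dose groups, and these correlations are a description. For Apoc3, an apolipoprotein of triglyceride-rich particles, r was 0.946 over the 20 arrays and 0.831 over the 17 without the 881 mg/kg group. For Sult1c3, a sulfotransferase, r was 0.934 and 0.785, and for Nrep 0.928 and 0.760. For Hao2, a peroxisomal hydroxyacid oxidase, r was 0.919 and 0.772, and for Pc, pyruvate carboxylase, 0.918 and 0.764. All 5 fell at 881 mg/kg, with log2 changes of -0.17 ± 0.05 for Apoc3, -1.08 ± 0.11 for Sult1c3, -2.04 ± 0.23 for Nrep, -1.34 ± 0.19 for Hao2 and -0.55 ± 0.085 for Pc.

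Upstream sequences of Slc22a8, which fell, and of Slc10a1, which did not pass the test, are shown because both hold the letters of the half-site of HNF1, a liver transcription factor. They come from RefSeq (GRCr8), which gave 250 bases before the annotated start for 8 of the 9 members. The half-site of HNF1 was searched as GTTAAT. The half-site shared by many nuclear receptors was searched as AGGTCA. For STAT factors the letters were TTCNNNGAA. The E-box bound by helix-loop-helix factors was searched as CACGTG. The TATA box, where the general transcription machinery binds, was searched as TATAAA. Both strands were searched, none of these motifs overlaps another in the windows printed, and the capitals mark every match on either strand. Slc22a8 (chr1:214927034-214927283, plus strand) holds GTTAAT at 93 to 88 bases before the start, and the whole window lies inside the annotated span of the gene. Slc10a1 (chr6:106357945-106358194, minus strand) holds GTTAAT at 20 to 15 bases before the start and AGGTCA at 197 to 192 and at 99 to 94.
Slc22a8: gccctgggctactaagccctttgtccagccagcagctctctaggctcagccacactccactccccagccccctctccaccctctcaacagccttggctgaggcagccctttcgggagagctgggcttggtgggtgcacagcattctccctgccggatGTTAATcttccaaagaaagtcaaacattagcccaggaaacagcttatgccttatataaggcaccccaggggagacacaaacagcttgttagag
Slc10a1: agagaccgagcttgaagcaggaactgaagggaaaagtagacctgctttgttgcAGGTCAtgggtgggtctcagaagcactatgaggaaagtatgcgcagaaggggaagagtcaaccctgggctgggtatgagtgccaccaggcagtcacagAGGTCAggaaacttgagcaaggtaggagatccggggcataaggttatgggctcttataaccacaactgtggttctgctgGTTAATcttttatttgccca
GTTAAT was also found before Slco1b2, so 3 of the 8 windows held it, against 6.5% of 33469 RefSeq windows of the same length. AGGTCA was found in 2 of the 8 windows, against 14.1% of all windows. A match of letters is not a binding site, and the arrays do not measure binding.

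Slc22a7, the organic anion transporter Oat2, lies on chromosome 9 from 22044672 to 22052051. It read 11.60, 11.65, 11.75, 11.60 and 11.71 in vehicle, 11.74, 11.85 and 11.78 at 55 mg/kg and 11.51, 11.58 and 11.63 at 110 mg/kg. It read 11.46, 11.65 and 11.42 at 220 mg/kg, 11.40, 11.44 and 11.44 at 440 mg/kg and 11.26, 11.22 and 11.32 at 881 mg/kg. The group means were highest at 55 mg/kg and then stepped down with every dose, and the arrays at 440 and 881 mg/kg lay below all vehicle arrays. The change at 881 mg/kg was -0.39 ± 0.066 (adjusted p = 0.00046), a level 1.31-fold lower.

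At 440 mg/kg Slc22a7 changed by -0.24 ± 0.066 (adjusted p = 0.0261), a call lost without any 1 of the 440 mg/kg arrays (0.0719 to 0.091), without vehicle replicate 3 (0.0575) or replicate 5 (0.0518), with each array centred on the median of its probe sets (0.0507) and with the replicate number as a block (0.0577). At 55 mg/kg its change was 0.13 ± 0.066 and did not pass (adjusted p = 0.359). Set against the 55 mg/kg group, the log2 change of Slc22a7 was -0.36 at 440 mg/kg (adjusted p = 0.0188) and -0.52 at 881 mg/kg (adjusted p = 0.0004), and against the 110 mg/kg group it was -0.30 at 881 mg/kg (adjusted p = 0.0245). In the comparison of 440 with 55 mg/kg 0.521% of all genes fell.

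Abcb4, the canalicular phosphatidylcholine floppase, lies on chromosome 4 from 26106895 to 26164440. It read 10.12, 10.37, 10.19, 10.15 and 10.33 in vehicle, 10.03, 10.20 and 10.11 at 55 mg/kg and 9.77, 9.76 and 9.84 at 110 mg/kg. It read 9.70, 9.93 and 9.79 at 220 mg/kg, 9.49, 9.30 and 9.50 at 440 mg/kg and 9.58, 9.48 and 9.45 at 881 mg/kg. The 12 arrays from 110 mg/kg upward were all below the 5 vehicle arrays. The group means at 110 and 220 mg/kg lay close together, as did those at 440 and 881 mg/kg.

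The change of Abcb4 was -0.44 ± 0.079 at 110 mg/kg (adjusted p = 0.0038) and -0.42 ± 0.079 at 220 mg/kg (adjusted p = 0.0054). It was -0.80 ± 0.079 at 440 mg/kg (1.75-fold lower, adjusted p = 2.81e-06) and -0.73 ± 0.079 at 881 mg/kg (1.65-fold lower, adjusted p = 7.48e-06). None of these calls was lost under any of the 29 other settings run. No step between neighbouring dose groups passed for Abcb4: the change of 440 against 220 mg/kg was -0.38 ± 0.088 (adjusted p = 0.21), a step called only with arrays weighted by their quality (0.0447). Against the 55 mg/kg group the change was -0.69 at 440 mg/kg (adjusted p = 0.00059) and -0.61 at 881 mg/kg (adjusted p = 0.00048). The related pump gene Abcb1a rose while Abcb4 fell, as given further on, and how well the probes of 1 keep apart from the other was not tested.

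Abcb11, the bile salt export pump, lies on chromosome 3 from 74424620 to 74520646. It read 12.20, 12.41, 12.29, 12.28 and 12.15 in vehicle, 12.33, 12.38 and 12.35 at 55 mg/kg and 12.16, 12.11 and 12.20 at 110 mg/kg. It read 12.22, 11.95 and 12.29 at 220 mg/kg, 12.01, 12.10 and 12.22 at 440 mg/kg and 12.15, 11.82 and 12.02 at 881 mg/kg. The 3 arrays at 881 mg/kg were below all vehicle arrays, the highest of them by less than 0.01. The change there was -0.27 ± 0.088 (1.21-fold lower, adjusted p = 0.0379), the lowest of its arrays being 881 mg/kg replicate 2. Without that array the change was -0.18 (adjusted p = 0.226), and the call was also lost without 881 mg/kg replicate 3 (0.0654), without vehicle replicate 2, 3 or 4 (0.0623 to 0.0852), with arrays weighted (0.123) or centred on the median of their probe sets (0.0692), with every probe set tested (0.0531) and with the 2 groups alone in the fit (0.0927). The trend of Abcb11, -0.056 ± 0.015 per dose step, passed with an adjusted p of 0.0104. Without that array it passed over genes (0.0394) and did not with every probe set tested (0.0566).

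**Figure D2:**
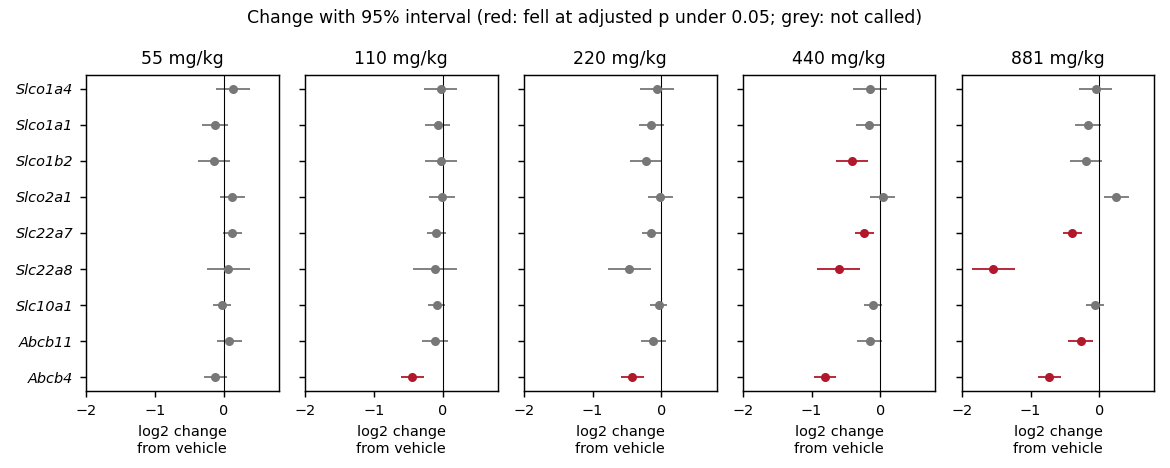
Log2 change of each member from vehicle at the 5 doses (x axis), with the 95% interval of the limma fit. Red marks an adjusted p under 0.05, here always a fall, and grey the rest: 0, 1, 1, 4 and 4 members are red at 55, 110, 220, 440 and 881 mg/kg.

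The Oatp genes Slco1a1, Slco1a4 and Slco1b2, which lie in the same stretch of chromosome 4 (176282577 to 176682027), had changes between -0.41 and 0.14 at the 5 doses. Slco1b2 is an Oatp of the rat hepatocyte that handles bile acids and many drugs. It read 11.68, 11.73 and 11.48 at 440 mg/kg, against 12.24, 12.02, 11.96, 12.04 and 11.95 in vehicle, with no overlap. Its change there was -0.41 ± 0.11 (1.33-fold lower, adjusted p = 0.0216). The call was lost without 440 mg/kg replicate 3 (0.124) or vehicle replicate 1 (0.0514) and with the mean of both probe sets (0.0559). At 881 mg/kg Slco1b2 read 11.97, 11.69 and 11.88, overlapping vehicle, and its change of -0.20 ± 0.11 did not pass (adjusted p = 0.229). The difference between 881 and 440 mg/kg, 0.22 ± 0.12 (95% interval -0.04 to 0.48), did not pass either. The trend, -0.0585 per dose step, passed narrowly (adjusted p = 0.0456). It was lost in 14 of the 20 fits that left out 1 array (slopes of -0.0707 to -0.0491 over the 20, adjusted p up to 0.107). The slope was -0.0563 without 881 mg/kg replicate 2 (0.0889). The trend was also lost with arrays centred on the median of their probe sets (0.0785), with every probe set tested (0.0604) and with the mean of both probe sets (0.202). Its second probe set changed by -0.33 ± 0.14 at 440 mg/kg (adjusted p = 0.181) and 0.03 ± 0.14 at 881 mg/kg.

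Slco1a4 (Oatp1a4) read 12.76, 12.83, 12.71, 12.70 and 12.77 in vehicle, 12.73, 13.04 and 12.91 at 55 mg/kg and 12.69, 12.44 and 13.05 at 110 mg/kg. It read 12.63, 12.75 and 12.68 at 220 mg/kg, 12.36, 12.66 and 12.78 at 440 mg/kg and 12.59, 12.63 and 12.88 at 881 mg/kg. Every dosed group overlapped vehicle, and the change at 881 mg/kg was -0.06 ± 0.12 (95% interval -0.30 to 0.19, adjusted p = 0.779). The second probe set behaved otherwise. It read 10.40, 9.58 and 10.66 at 881 mg/kg, against 10.89, 10.67, 10.70, 10.76 and 10.76 in vehicle, a change of -0.54 ± 0.17 (adjusted p = 0.0419 with every probe set tested) that was -0.23 without 881 mg/kg replicate 2 (adjusted p = 0.343). Its trend passed with that array (adjusted p = 0.0048) and without it (0.0149). On this probe set every array from 110 mg/kg upward read below the lowest vehicle array (10.67), the highest of them at 10.66. Its changes at 110, 220 and 440 mg/kg were -0.29, -0.37 and -0.51, and none passed (adjusted p = 0.495, 0.36 and 0.0908). The share of all probe sets with arrays placed in this way is not given. The probe sets of Slco1a4 thus disagreed, and which of them follows the transcript was not tested.

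Slco1a1 (Oatp1a1) read 10.49, 10.53, 10.48, 10.34 and 10.39 in vehicle, and its dosed group means lay between 10.28 and 10.38. At 881 mg/kg it read 10.40, 10.01 and 10.45, overlapping vehicle, with the low value on replicate 2. The change was -0.16 ± 0.089 (95% interval -0.35 to 0.02, adjusted p = 0.204), and -0.03 without that array. Slco1a1 passed the test at no dose.

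Slco1a1 and Slco1a4 are close relatives, and their upstream windows, shown for that reason, were the most alike of any pair among the 8 members with one, with 179 of 266 aligned positions identical (67.3%). The next pair, Slco1a4 and Slco1b2, reached 51.9%. The Slco1a4 window (chr4:176495847-176496096, minus strand) holds CACGTG at 236 to 231 bases before the start, a motif found in 5.6% of all windows. The Slco1a1 window (chr4:176681993-176682242, minus strand), of which 35 bases lie inside the annotated gene, holds none of the 5 motifs.
Slco1a4: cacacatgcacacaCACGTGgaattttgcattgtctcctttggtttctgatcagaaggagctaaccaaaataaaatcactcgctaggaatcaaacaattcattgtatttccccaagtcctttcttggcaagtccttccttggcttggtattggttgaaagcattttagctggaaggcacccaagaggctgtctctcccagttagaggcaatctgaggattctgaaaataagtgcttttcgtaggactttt
Slco1a1: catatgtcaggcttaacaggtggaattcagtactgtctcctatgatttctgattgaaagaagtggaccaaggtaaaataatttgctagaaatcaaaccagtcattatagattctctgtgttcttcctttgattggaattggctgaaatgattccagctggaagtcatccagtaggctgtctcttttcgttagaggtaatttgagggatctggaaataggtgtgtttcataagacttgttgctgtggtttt

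Slco2a1, the prostaglandin transporter, lies on chromosome 8 from 112467739 to 112551923 and is known to be expressed in endothelial cells. It read 11.97, 11.996 and 11.79 at 881 mg/kg, against 11.73, 11.56, 11.70, 11.69 and 11.70 in vehicle, all 3 above. The change was 0.25 ± 0.088 and did not pass (adjusted p = 0.0578). It passed with each array centred on the median of its probe sets (0.0277), with dim genes left out (0.0456), with an intensity trend and robust prior (0.0472) and when replicate 1 or 3 at 55 mg/kg or replicate 3 at 881 mg/kg was left out (0.0329 to 0.0435). The second probe set of Slco2a1 read 9.20, 7.74 and 9.01 at 881 mg/kg, against 8.94, 8.81, 8.98, 8.97 and 9.05 in vehicle. Its change was -0.30 ± 0.21 with 881 mg/kg replicate 2, the low value, and 0.16 without it, and neither passed. At the other doses the group means of the first probe set lay between 11.66 and 11.80 and overlapped vehicle.

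Slc10a1, the sodium-dependent bile salt carrier, read 13.60, 13.66, 13.62, 13.67 and 13.54 in vehicle. It read 13.50, 13.62 and 13.54 at 881 mg/kg and 13.54, 13.52 and 13.47 at 440 mg/kg, and the groups overlapped at every dose. The change was -0.06 ± 0.061 at 881 mg/kg (95% interval -0.19 to 0.06, adjusted p = 0.49) and -0.11 ± 0.061 at 440 mg/kg (-0.23 to 0.02, adjusted p = 0.298). Slc10a1 passed the test at no dose, and its trend of -0.016 ± 0.010 per dose step did not pass either (adjusted p = 0.272).

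**Figure D3:**
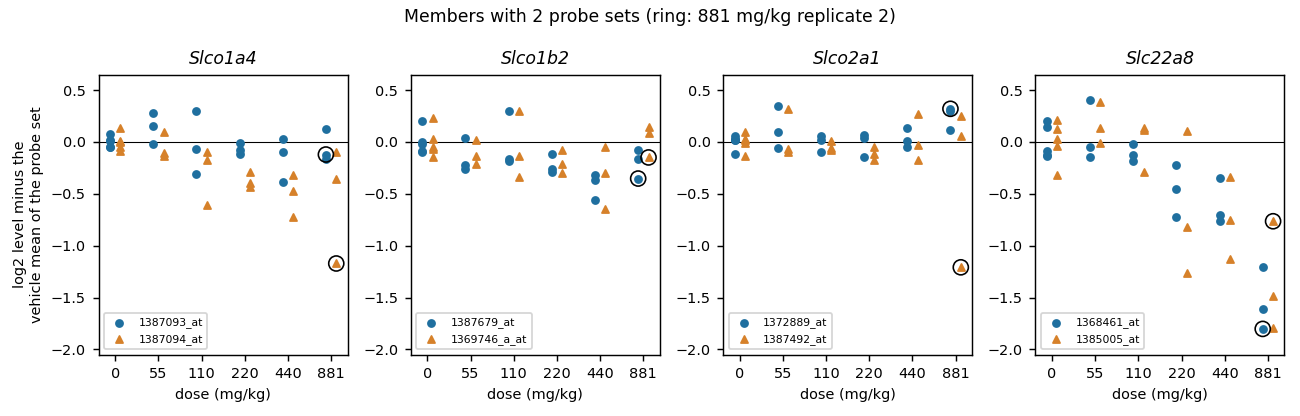
Log2 level minus the vehicle mean of the same probe set, by dose (mg/kg), for the 4 members with 2 probe sets. Circles are the probe set that represents the gene, triangles the other, and rings 881 mg/kg replicate 2. On Slc22a8 both probe sets lie low at 881 mg/kg, and on Slco1a4 and Slco2a1 the ringed triangle lies more than 1 log2 unit below vehicle while the ringed circle does not.

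The order of group levels was set beside the tests between neighbouring doses. Of the steps from 55 to 110, 110 to 220 and 220 to 440 mg/kg, 0 were called for any of the 9 members, where 0%, 0% and 0.0211% of all genes were called. From 440 to 881 mg/kg only the step of Slc22a8 passed, where 0.26% of all genes did. Over the 20 arrays, the levels of Slc22a7 correlated with those of Slc22a8 (r = 0.86) and of Abcb4 (r = 0.83), and those of Slc22a8 with those of Abcb4 (r = 0.71). The highest correlation of Slc10a1 with another member was 0.52, with Abcb4. These values describe arrays that share their dose groups.

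Other genes of bile salt and organic anion transport were counted at 881 mg/kg from lists that leave out the 9 members. With all arrays, 12.7% of all genes rose and 6.73% fell at that dose. The shares without 881 mg/kg replicate 2 are not given. Of 25 measured uptake carriers of the Slco, Slc22, Slc10 and Slc47 families, 2 rose and 1 fell, with a median log2 change of 0.13 that was 0.038 without 881 mg/kg replicate 2. Slc22a15 rose by 0.59 ± 0.14 and Slc22a18 by 0.33 ± 0.089, and Slco3a1 fell by 0.30 ± 0.085. Without that array Slc22a18 alone was called. Of 12 measured exporters of bile acids, lipids and conjugates, 4 rose and 3 fell, the same numbers without that array, with a median of 0.05. The sinusoidal conjugate pumps Abcc3 (3.67 ± 0.33) and Abcc4 (1.68 ± 0.19) and the drug pump Abcb1a (1.67 ± 0.15) rose. Their means at 881 mg/kg and in vehicle were 10.25 and 6.58 for Abcc3, 8.03 and 6.36 for Abcc4, and 8.996 and 7.33 for Abcb1a. The fallers, named after their values were seen, included the half-transporters of the canalicular sterol exporter, Abcg5 (-1.66 ± 0.29) and Abcg8 (-1.503 ± 0.26), which were also called without that array (-1.56 and -1.29).

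At 881 mg/kg 12.7% of all genes rose and 6.73% fell with all arrays. Of 18 measured genes of bile acid synthesis and conjugation, 3 rose and 4 fell there (3 and 2 without replicate 2). Their median log2 change was -0.006, or 0.049 without that array. Cyp7a1, the rate-limiting enzyme of the classic pathway, had the largest change: its level was 12.19, against 11.01 in vehicle, a change called with the array and not without it (0.97, adjusted p = 0.169). Slc27a5, which activates bile acids with coenzyme A, fell by 0.57 ± 0.13, and Hsd3b7, a dehydrogenase of the sterol ring, fell by 0.56 ± 0.091. Of 19 measured nuclear receptors and regulators, 4 rose and 2 fell (2 and 1 without replicate 2). Nr0b2 (SHP), a repressor induced by the bile acid receptor, rose by 1.10 ± 0.34, and without that array its change of 0.87 was not called (adjusted p = 0.165). Foxa2, a liver transcription factor, rose by 0.69 ± 0.20, and Nr1i2, the receptor PXR, fell by 0.44 ± 0.075.

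The next lists, too, are set beside the 12.7% of all genes that rose and the 6.73% that fell at 881 mg/kg with all arrays. Of 14 measured genes of canalicular trafficking and scaffold, 3 rose and 3 fell (1 and 1 without replicate 2). The scaffold gene Pdzk1 fell by 0.44 ± 0.12, and Myo5b (0.44 ± 0.14) and Rab11a (0.43 ± 0.073), a motor and a small GTPase that carry pumps to the canaliculus, rose. Without replicate 2, Rab11a was still called and Pdzk1 and Myo5b were not. Of 16 measured genes known to be induced through CAR and PXR, nuclear receptors for foreign compounds, 12 rose and 0 fell with or without that array, led by the carboxylesterase Ces2c (4.03 ± 0.21), Abcc3 and the glutathione transferase Gsta3 (2.72 ± 0.43). Of 12 measured male-biased rat liver genes, 6 fell and 2 rose (5 and 2 without replicate 2). The log2 change was -3.54 ± 0.45 for Stac3, -2.95 ± 0.45 for Dhrs7l1 and -2.01 ± 0.26 for the lipocalin gene Obp3.

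**Figure D4:**
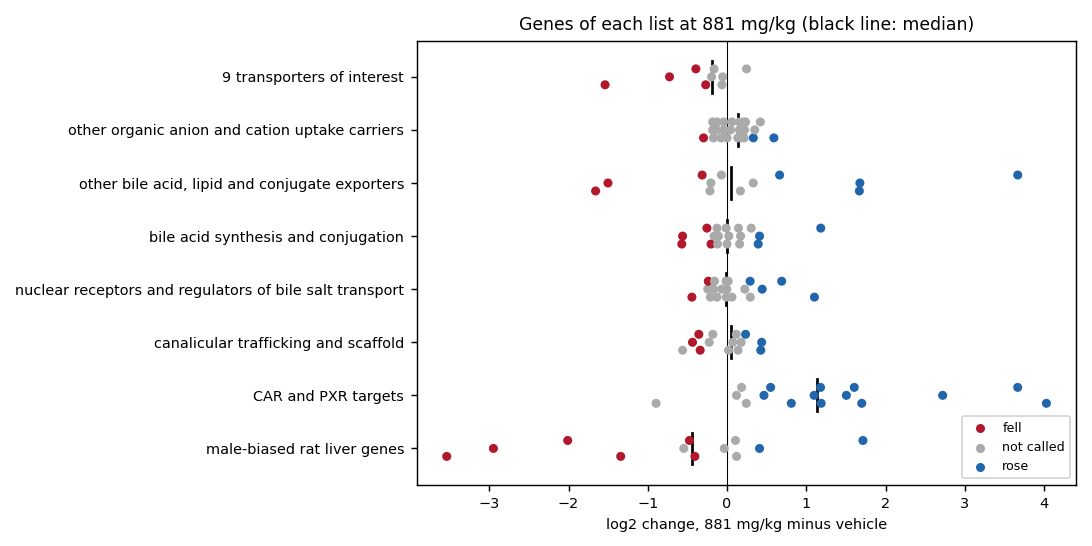
Log2 change at 881 mg/kg minus vehicle (x axis) for the 9 transporters of interest and for the measured genes of each list, which leave out those 9. Each point is a gene, red where it fell, blue where it rose and grey where it was not called, and black lines are medians, -0.20 for the 9 transporters and 1.14 for the targets of CAR and PXR.

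The liver label was checked against marker genes, and markers of other liver cells moved with dose. In bulk liver, fewer cells of a type and less RNA per cell cannot be told apart. Of 12 measured hepatocyte markers, 1 rose and 2 fell at 881 mg/kg (1 and 0 without replicate 2). Their summed level was 17.73 on replicate 2 and 17.81 and 17.82 on the other arrays at 881 mg/kg, against 17.81 to 17.85 in vehicle. Of 10 Kupffer cell and macrophage markers, 9 fell (4 without replicate 2), with summed levels of 12.84 to 13.51 against 13.72 to 14.04 in vehicle. The median log2 change of these markers was -0.73, and -0.70 without replicate 2. Of 12 stellate cell and fibroblast markers, 8 fell (3 without replicate 2), with 11.72 to 12.29 against 12.55 to 12.92 in vehicle. Here the median was -0.70, and -0.53 without replicate 2. Of 12 endothelial markers, 4 fell (1 without replicate 2), with 12.23 to 12.96 against 12.75 to 13.13 in vehicle. For these the median was -0.47, and -0.35 without replicate 2. Leaving out replicate 2 also leaves fewer arrays in the 881 mg/kg group. With all arrays 12.7% of all genes rose and 6.73% fell at 881 mg/kg, and the shares without replicate 2 are not given. Of 8 bile duct markers, Epcam alone was called, rising by 0.86 ± 0.14, with summed levels of 10.59 to 11.00 against 10.11 to 10.50 in vehicle. The endothelial sum at 881 mg/kg was below all vehicle arrays on replicates 2 (12.38) and 3 (12.23). On replicate 1 (12.96) it was within the vehicle range, but replicate 1 held the highest sum in every group (13.13 in vehicle). Slco2a1 lay above vehicle on all 3 arrays at 881 mg/kg. The part of these cells in the members' values was not tested.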

How the data were processed

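Expression was measured in rat liver RNA, 1 array per sample. The authors deposited RMA values on a log2 scale, 1 for each probe set, with RMA named in the submitters' processing notes and the scale read from the range of the values. RMA makes the distributions of all arrays alike, which hides a difference in RNA per cell and shrinks changes of dim genes. The sources used here name no RMA version, scan date or batch. Array medians were 6.31 to 6.39, and any 2 arrays had at most 0.0226% of their values in common.

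Of 31099 probe sets, 57 controls were set aside. GEO's annotation of the platform, possibly dated, gave 1 symbol for 20826 of the rest (20758 matched a RefSeq gene by gene ID), several for 436 and none for 9780. The gene tests used only probe sets of 1 symbol.

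The 6 groups were fitted in 1 model over 20 arrays with limma 3.58.1 (lmFit, eBayes) in R 4.3.3, two-sided, with p-values adjusted by Benjamini-Hochberg over 14217 genes. The groups share 1 estimate of the spread. The model was tested on simulated data. "Rose" and "fell" stand only for changes that passed the test. Alternatives were other probe set rules, centring of arrays on either of 2 medians, a filter on dim genes, eBayes with an intensity trend, array weights, 2 groups alone, the replicate number as a block and leaving out each array.

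The members and gene lists were chosen with earlier results of these data known. Named were the 9 members, up to 3 called genes of each list with the largest change at 881 mg/kg, the 5 genes most correlated with the member that fell most, and marker genes beside the result they bear on. Summed marker levels are log2 of summed linear values. Upstream windows were aligned with Biopython 1.88. Tables and figures were made with pandas 2.3.3, matplotlib 3.10.9 and NumPy 2.4.6 under Python 3.11.15.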

Additional observations from a re-analysis of the deposited data

Results flagged for a closer look

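For Slco2a1, vehicle replicate 2 read 11.56, against 11.69 to 11.73 on the other 4 vehicle arrays. The gap to its nearest neighbour was 0.759 of the range of the group, above Dixon's 95% critical value of 0.71 for 5 samples. Chance flags about 1 in 20 groups, and 9 vehicle groups, 1 for each member, were looked at. Without that array the change of Slco2a1 at 881 mg/kg was 0.22 and did not pass limma's test (adjusted p = 0.117).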

How the results depend on the processing

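Of 1905 values of single members recomputed under 29 other settings, 1832 kept their direction and their side of the threshold, 43 lost a call, 13 gained one and 17 changed sign, all of these last from values that were not called. The falls of Slc22a8, Abcb4 and Slc22a7 at 881 mg/kg and of Abcb4 at 110, 220 and 440 mg/kg were called under all 29. The count at 220 mg/kg was 3 with array weights (Abcb4, Slc22a8 and Slc22a7), and between 220 and 440 mg/kg it was 1. Between 440 and 881 mg/kg it was 0 with the mean of a gene's probe sets and 0 with the 2 groups alone in the fit. Leaving out 1 array at a time, the counts ranged from 1 to 4 at 440 mg/kg (1 without 440 mg/kg replicate 3 and 2 without replicate 2), from 0 to 1 between 440 and 881 mg/kg, from 3 to 5 at 881 mg/kg and from 4 to 6 in the trend. The shares of all genes called with array weights, with the replicate number as a block or without 1 array are not given here. These member counts therefore cannot be set against a share. The cause of these differences between settings was not tested. With every probe set tested and without 881 mg/kg replicate 2, chosen after seeing the data, 3 members were called at 881 mg/kg and 4 in the trend, where the second probe set of Slco1a4 was called (0.0149) and Abcb11 was not (0.0566).

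Of the values that changed sign, that of Slco2a1 at 881 mg/kg was 0.25 as reported (95% interval 0.06 to 0.43). Slco2a1 changed by 0.0087 at 110 mg/kg with arrays centred on the median of their probe sets, and by -0.027 at 881 mg/kg and -0.0082 in the trend with the mean of its probe sets. With array weights Slco1a4 changed by 0.027 at 110 mg/kg and Abcb4 by -0.013 between 110 and 220 mg/kg. Leaving out 1 array, the log2 changes ranged from -0.098 to 0.18 for Slc22a8 at 55 mg/kg, and at 110 mg/kg from -0.19 to 0.12 for Slco1a4, from -0.18 to 0.064 for Slco1b2 and from -0.0403 to 0.038 for Slco2a1. They ranged from -0.057 to 0.052 for Slco2a1 and from -0.075 to 0.0028 for Slc10a1 at 220 mg/kg, from -0.017 to 0.075 for Slco2a1 at 440 mg/kg, and from -0.044 to 0.071 for Abcb4 between 110 and 220 mg/kg.

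Over all genes, the split of rising against falling genes also moved with the scaling at 55, 110, 220 and 440 mg/kg and in the trend. As deposited it was 275 and 125, 336 and 177, 320 and 168, 961 and 609, and 1835 and 1252, in that order. Centring on the median of the tested genes was an alternative added after seeing the data. It gave 204 and 153, 286 and 231, 270 and 208, 863 and 683, and 1559 and 1578. Centring on the median of the probe sets gave 278 and 110, 358 and 139, 317 and 146, 1057 and 510, and 2256 and 908. Under the latter, 3 members fell at 440 mg/kg and 4 in the trend, against 4 and 5 as deposited.

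The replicate numbers recur in every group. Arrays with the same number in different groups had a median correlation of deviations of 0.136 (45 pairs, from -0.116 to 0.348), against -0.0773 for 90 pairs with different numbers, and 15 of 18 arrays were nearest to their own number. Not every pair correlated above the limit set for pairing (the lowest was -0.116), so the numbers were not taken to pair the samples. Whether the numbers mark a shared batch was not tested, and the main fit holds no term for one. With the replicate number as a block, 3 members were called at 440 mg/kg, Slc22a7 being lost (adjusted p = 0.0577), and 4 at 881 mg/kg, 5 in the trend and 1 between 440 and 881 mg/kg, as without it. The change of Slco2a1 at 110 mg/kg was 0.0042 under the block.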
